A study of Mus musculus with 14 samples.

Results

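The glucocorticoid receptor gene Nr3c1 and 9 genes that glucocorticoids are known to induce (Fkbp5, Tsc22d3, Sgk1, Zbtb16, Klf9, Errfi1, Cebpd, Mt1 and Mt2) were followed in bulk RNA-seq of mouse plexiform neurofibromas (PNs). The members were chosen by symbol, and all 10 were found among the 24062 genes of the count table. The controls were 3 libraries of dorsal root ganglia (DRGs) with nerves from Nf1fl/fl mice (DRG3, DRG4 and DRG5), which carry the floxed allele without Cre. The PNs came from DhhCre;Nf1fl/fl mice, 5 from slow-growing tumors (1079, 1198A, 1202, 1203 and 1206) and 6 from fast-growing tumors (1053, 1071, 1179, 1191, 1214 and 1216). In these mice the Desert hedgehog promoter drives Cre, so that both copies of Nf1 are lost in the Schwann cell lineage while the other cells of the tumor keep theirs. Tumors were graded by MRI over 2 months, with a volume change below 5 mm3 for slow and above 35 mm3 for fast growth, and tissue was taken at 9 months of age. The mice were on a mixed C57BL/6, I-129 and FVBN background, and received no drug. The study used males and females, and the sex of each library is not given in the sources used here. PN libraries carry mouse numbers, but whether the controls came from separate animals is not stated, so p-values measure the spread between these libraries.

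Glucocorticoids enter cells and bind the receptor, which waits in the cytoplasm in a chaperone complex. The bound receptor moves to the nucleus, where pairs of receptors bind palindromic DNA elements and raise or lower transcription of nearby genes. Schwann cells express the receptor, and glucocorticoids are known to promote myelin gene expression in them. Fkbp5, Tsc22d3, Zbtb16 and Klf9 are widely used readouts of receptor activity, Sgk1 and Errfi1 also respond to growth factor and osmotic signals, Cebpd also responds to cytokines, and the metallothioneins Mt1 and Mt2 also respond to zinc through the metal response element.

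On GRCm38 (mm10), Fkbp5 lies at chr17:28399094-28517527 on the - strand, Sgk1 at chr10:21882184-21999903, Errfi1 at chr4:150853919-150868892, Mt2 at chr8:94172664-94173568 and Mt1 at chr8:94179082-94180327 on the + strand. All 10 genes are annotated as protein coding, and counts are summed over their exons.

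Promoter sequences were examined to show which receptor and metal elements lie near the annotated starts. RefSeq windows (GRCm38.p6, 250 bases before to 50 after each start) were held for 7 of the 10 genes, 15 windows in all, with none for Nr3c1, Zbtb16 or Cebpd. The receptor hexamer AGAACA, or TGTTCT on the other strand, was found in 4 of the 15 windows, and in 19% of the 32851 windows of all genes. Those 4 were 3 of the 6 windows of Sgk1 and 1 of the 3 windows of Tsc22d3. The full palindrome (AGAACA, 3 bases of any kind, then TGTTCT, each end counting as a hexamer too) was present without mismatch in 1 window of Sgk1, at chr10:21993701-21993715, 189 bases before that start, and in 0.00913% of all windows. The metal response core (TGCACNC or TGCGCNC, on either strand) was found 4 times in the Mt2 window, 3 times in the Mt1 window and 1 time in another window of Sgk1. Of all windows, 0.517% held at least 4 cores and 1.97% at least 3. The windows of Fkbp5, Klf9 and Errfi1 held neither a hexamer nor a core in these 300 bases. The Sgk1 window with the palindrome and the windows of both metallothioneins are shown on the + strand, 5′ to 3′, because they separate the receptor element from the metal element. Capitals mark hexamers and the palindrome in Sgk1 and metal response cores in Mt1 and Mt2.
Sgk1, chr10:21993640-21993939: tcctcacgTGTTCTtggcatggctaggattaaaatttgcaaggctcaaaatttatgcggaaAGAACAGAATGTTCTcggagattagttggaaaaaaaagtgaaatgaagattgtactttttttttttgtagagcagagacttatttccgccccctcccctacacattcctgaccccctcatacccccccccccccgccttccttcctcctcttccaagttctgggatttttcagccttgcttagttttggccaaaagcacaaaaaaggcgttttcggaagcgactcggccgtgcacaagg
Mt2, chr8:94172368-94172667: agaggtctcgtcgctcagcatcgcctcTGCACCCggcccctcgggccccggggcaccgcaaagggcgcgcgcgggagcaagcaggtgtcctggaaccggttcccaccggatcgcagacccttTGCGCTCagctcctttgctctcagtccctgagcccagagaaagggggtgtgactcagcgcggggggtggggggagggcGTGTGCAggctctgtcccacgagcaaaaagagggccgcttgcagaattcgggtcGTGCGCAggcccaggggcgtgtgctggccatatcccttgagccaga
Mt1, chr8:94178839-94179138: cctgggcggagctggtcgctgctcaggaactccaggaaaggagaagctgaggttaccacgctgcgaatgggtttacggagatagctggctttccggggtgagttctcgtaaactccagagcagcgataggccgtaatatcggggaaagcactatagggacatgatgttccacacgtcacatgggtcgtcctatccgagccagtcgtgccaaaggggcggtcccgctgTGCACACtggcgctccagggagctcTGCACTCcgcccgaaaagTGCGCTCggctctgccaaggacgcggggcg

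Libraries held 9596773 to 17594164 counts, and 3 counts corresponded to 0.171 to 0.313 CPM. Levels are given in CPM, a gene's count per 1e+06 counts of its library, scaled by the trimmed mean of M-values (TMM). A gene was called where the adjusted p of edgeR's quasi-likelihood test was under 0.05. The control libraries were richer in muscle and fat RNA than the PNs: the summed level of 12 muscle markers was 3740 to 15320 CPM in controls and 17.5 to 3429 CPM in PNs, and that of 12 fat markers was 3732 to 5463 CPM in controls and 20.5 to 2716 CPM in PNs. Of these lists, 7 of 12 muscle and 6 of 12 fat markers fell in PNs, where 26.3% of all genes tested were called and 13.4% were called lower. The 8 Schwann cell markers summed to 3450 to 10140 CPM in controls and 6398 to 15880 CPM in PNs, with 4 of 8 higher, and the 8 neuron markers to 926 to 3188 CPM and 27.8 to 8377 CPM, with 0 of 8 called and fast 1191 lowest. Whole-gene Nf1 ranged from 131 to 229 CPM in controls and 224 to 293 CPM in PNs, a level that includes cells outside the Schwann lineage and therefore does not test the deletion. In such bulk tissue, fewer cells of a type and less RNA per cell cannot be told apart.

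Averaged over the tumors, the receptor and most of its response genes did not separate PNs from controls. Of the 10 genes, 2 were called in all PNs against control, Errfi1 and Mt1, both lower, where 26.3% of 16283 genes tested were called and 13.4% were called lower. In slow-growing PNs against control 0 of 10 were called by edgeR (11.3% of 15714 genes), with 0 at an unadjusted p under 0.05, and DESeq2 and limma voom also called 0. In fast-growing PNs against control 3 of 10 were called by edgeR, Sgk1, Errfi1 and Mt1, all lower (31.4% of 16037 genes were called, 16.7% lower). There limma voom called the same 3. DESeq2 called 4, adding Klf9 as higher (log2 fold change 0.61, adjusted p = 0.040). In fast-growing against slow-growing PNs 0 of 10 were called by edgeR (1.27% of 15465 genes), with 1 at an unadjusted p under 0.05, and 0 by DESeq2 and by limma voom. The count over all genes in that last comparison, 196, ranged from 2 to 1194 as each library was left out. In PNs against control that count, 4283 with all libraries, then ranged from 2061 to 4779. In slow-growing PNs against control it was 1769 and ranged from 599 to 2454, and in fast-growing PNs 5043 and from 3342 to 5247. With both directions counted, the shares of members called lie at or below those of all genes, and the shares called lower lie above those of all genes in PNs and in fast-growing PNs, by counts of 2 and 3 members. The median log2 fold change of the 10 genes was 0.31 in PNs against control, beside 0.10 for all genes tested.

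**Figure D1:**
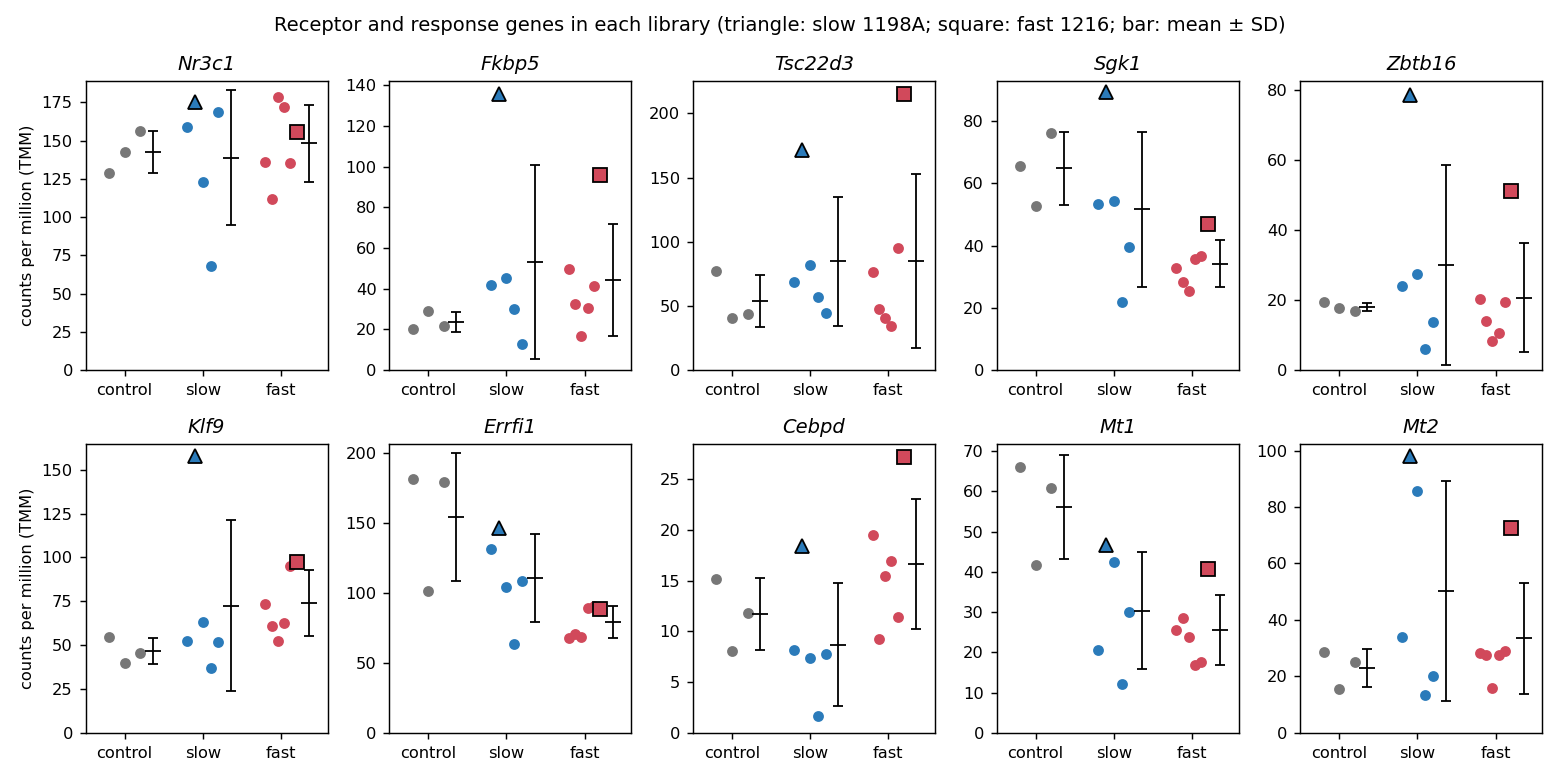
Level of each gene in CPM (TMM-scaled, vertical axis from 0) in 3 control, 5 slow-growing and 6 fast-growing libraries; bars are mean ± SD, the triangle is slow 1198A and the square is fast 1216. Nr3c1 overlapped between groups, Sgk1, Errfi1 and Mt1 were lower in all 6 fast-growing PNs than in the 3 controls, and slow 1198A and fast 1216 stood above the other 9 PNs for Fkbp5, Tsc22d3, Zbtb16 and Klf9.

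The receptor gene itself was level across groups. Nr3c1 was at 129, 142 and 156 CPM in controls, at 159, 175, 123, 68.4 and 169 CPM in the slow-growing PNs 1079, 1198A, 1202, 1203 and 1206, and at 112 to 179 CPM (median 146) in the fast-growing PNs. The groups overlapped, and slow 1203 was the one library well below the rest. The log2 fold change of Nr3c1 in PNs against control was 0.01 (SE 0.22, adjusted p = 0.97), and its sign changed with the scaling, to -0.04 with size factors of relative log expression. Against control it was -0.07 (SE 0.30) in slow-growing and 0.00461 (SE 0.18) in fast-growing PNs. Of 17 genes of the receptor machinery (chaperones, co-regulators, steroid enzymes and the mineralocorticoid receptor Nr3c2), 1 fell in PNs and 0 rose, where 26.3% of all genes were called. That gene was Hsd11b1, whose enzyme regenerates active glucocorticoid from its inert form and which fat expresses strongly; its mean was 62.3 ± 18.8 CPM over the controls (SD, n = 3), against 4.52 ± 5.04 CPM over the PNs (SD, n = 11), or -3.79 on the log2 scale (SE 0.75, adjusted p = 0.0022). The fat marker sums given above moved the same way, and their part in it was not tested. Nr3c2 averaged 28.8 ± 2.33 CPM over the controls, against 32.1 ± 4.66 CPM over the PNs (log2 fold change 0.16, SE 0.14, adjusted p = 0.44).

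Fkbp5 encodes the co-chaperone FKBP51, which lowers the receptor's affinity for hormone and so closes a feedback loop. It was at 20.4, 29.2 and 21.7 CPM in controls. The slow-growing PNs 1079, 1198A, 1202, 1203 and 1206 held 41.7, 135.5, 45.2, 30.1 and 12.9 CPM. The fast-growing PNs held 16.8 to 95.8 CPM (median 36.9), with fast 1216 highest. Of the 11 PNs, 9 were above all controls and 2 below all of them, so that the tumors spread to both sides of a narrow control range. Fkbp5 differed by a log2 fold change of 1.03 (SE 0.59, adjusted p = 0.22) in PNs against control.

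Tsc22d3 encodes GILZ, a leucine zipper protein that carries much of the anti-inflammatory action of glucocorticoids. It was at 77.2, 40.9 and 43.9 CPM in controls. The slow-growing PNs, in the order above, held 68.5, 171, 82.1, 57.2 and 44.5 CPM, and the fast-growing PNs 34.3 to 215 CPM (median 62.2). Slow 1198A and fast 1216 were again the highest, and the other 9 PNs lay between 34.3 and 95.4 CPM. Against control, the PNs differed by 0.65 on the log2 scale (SE 0.52, adjusted p = 0.38).

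Zbtb16 encodes the transcriptional repressor PLZF. It was at 19.4, 17.8 and 17.0 CPM in controls, the narrowest range of the 10 genes. In slow-growing PNs it was at 24.2, 78.8, 27.6, 6.02 and 13.9 CPM and in fast-growing PNs at 8.49 to 51.1 CPM (median 16.8). Its highest PN stood 13.1 times above its lowest, and 6 PNs were above and 5 below all controls. PNs and controls differed by 0.47 on the log2 scale (SE 0.64, adjusted p = 0.62); without slow 1198A and fast 1216 it was -0.17 (adjusted p = 0.78).

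Klf9 encodes a Krüppel-like repressor that also links glucocorticoid and circadian signals. It was at 54.7, 39.8 and 45.6 CPM in controls, at 52.6, 158, 63.4, 37.0 and 51.9 CPM in slow-growing PNs and at 52.3 to 97.7 CPM (median 68.2) in fast-growing PNs. In fast-growing PNs 5 of 6 libraries were above all controls. There Klf9 differed by 0.61 on the log2 scale (SE 0.22, adjusted p = 0.063), and over the alternatives other than leaving out a library its adjusted p ranged from 0.037 (total counts without TMM) to 0.99 (with muscle and fat scores as covariates). Without fast 1179 the adjusted p was 0.030, at 0.74 on the log2 scale.

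Sgk1 encodes a kinase that regulates ion channels and transporters. It was at 65.7, 52.7 and 76.1 CPM in controls. Slow-growing PNs held 53.4, 89.5, 54.2, 22 and 39.4 CPM and fast-growing PNs 25.3 to 46.9 CPM (median 34.2). Every fast-growing library was below every control, while the slow-growing ones overlapped them. In fast-growing PNs against control the log2 fold change of Sgk1 was -0.97 (SE 0.20, adjusted p = 0.0056). In all PNs against control it was -0.62 (adjusted p = 0.17), and -0.79 (adjusted p = 0.031) without slow 1198A.

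Errfi1 encodes MIG6, a feedback inhibitor of the epidermal growth factor receptor. It was at 182, 102 and 179 CPM in controls, 131, 146, 104, 63.8 and 109 CPM in slow-growing PNs and 67.5 to 90.6 CPM (median 79.9) in fast-growing PNs. The fast-growing PNs were below all controls and had the narrowest relative range of the 10 genes in that group, with a mean of 79.3 ± 11.2 CPM (SD, n = 6). Errfi1 differed by -1.01 on the log2 scale (SE 0.20, adjusted p = 0.0041) in fast-growing PNs and -0.72 (SE 0.25, adjusted p = 0.044) in all PNs against control. Fast-growing against slow-growing PNs gave -0.49 (SE 0.19, adjusted p = 0.19), and -0.63 (adjusted p = 0.038) without slow 1203, the lowest of the slow-growing libraries.

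The calls on Sgk1, Errfi1 and Mt1 were checked with muscle and fat marker scores as covariates, and the part of tissue content in them was not tested further. In PNs against control 0 of the 10 genes were then called, where 220 of all genes were, and the log2 fold changes of Errfi1 and Mt1 were -0.061 (SE 0.41) and -0.62 (SE 0.57). In fast-growing PNs against control 0 of all genes were called, so the lost calls say nothing about these members. There Sgk1 gave -1.28 (SE 0.89), Errfi1 -0.74 (SE 0.84) and Mt1 -3.52 (SE 0.89), with larger SEs than without the covariates. In PNs against control, Errfi1 and Mt1 were both lost without control DRG3 (adjusted p = 0.16 and 0.11) and without control DRG5 (adjusted p = 0.21 and 0.13). The calls of Sgk1, Errfi1 and Mt1 in fast-growing PNs held when each library was left out in turn, with adjusted p up to 0.038, 0.031 and 0.049. In that comparison the groups did not overlap for 3 of 10 genes, against 32.4% of all genes tested. Exact two-sided permutation tests of mean log2(CPM + 1), adjusted over 10 genes in 4 comparisons, gave a lowest adjusted p of 0.159. Sgk1, Errfi1 and Mt1 in fast-growing PNs were at 0.0119, the smallest p that 3 against 6 libraries allow, so this adjustment could not bring these 3 genes alone under 0.05.

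**Figure D2:**
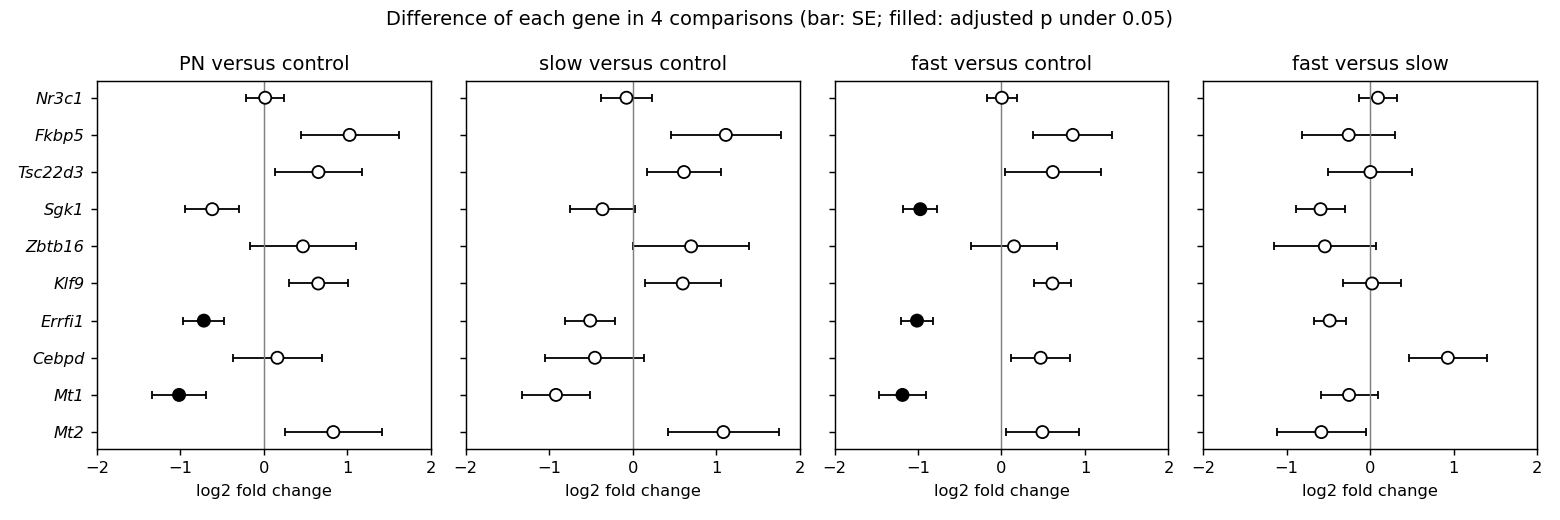
Log2 fold change (horizontal axis) of each gene in 4 comparisons, with bars for the SE and filled points for an adjusted p under 0.05 in edgeR's quasi-likelihood test. The filled points are Errfi1 and Mt1 in PNs against control and Sgk1, Errfi1 and Mt1 in fast-growing PNs against control, all below 0.

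Cebpd encodes a transcription factor of the acute phase response. It was at 15.1, 8.04 and 11.8 CPM in controls, 8.21, 18.4, 7.41, 1.64 and 7.81 CPM in slow-growing PNs and 9.26 to 27.2 CPM (median 16.2) in fast-growing PNs. Fast-growing and slow-growing PNs differed by a log2 fold change of 0.93 (SE 0.47, adjusted p = 0.29), and 2 of 6 fast-growing libraries were above every slow-growing one. Cebpd shares 562 of 3746 exonic bases with Spidr on the opposite strand, and the strand setting of the counting is not given in the sources used here. Its relative Cebpb fell in PNs, from 7.88 ± 2.11 CPM (SD, n = 3) to 0.878 ± 0.480 CPM (SD, n = 11).

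The metallothioneins Mt1 and Mt2, small zinc-binding proteins whose genes are neighbors on chromosome 8, differed from each other in their response. Mt1 was at 66.0, 41.6 and 60.8 CPM in controls, 20.7, 46.7, 42.6, 12.1 and 30.0 CPM in slow-growing PNs and 16.8 to 40.7 CPM (median 24.7) in fast-growing PNs. All fast-growing libraries were below the controls. The log2 fold change of Mt1 was -1.02 (SE 0.33, adjusted p = 0.032) in PNs and -1.19 (SE 0.28, adjusted p = 0.0098) in fast-growing PNs against control. With length and GC trends removed, the call of Mt1 in all PNs was lost (-0.71, adjusted p = 0.13). Mt2 was at 28.6, 15.6 and 25.1 CPM in controls, 33.8, 98.1, 85.6, 13.4 and 20.2 CPM in slow-growing PNs and 16.0 to 72.5 CPM (median 27.9) in fast-growing PNs. The PNs overlapped the controls, and slow 1198A, slow 1202 and fast 1216 were far above the rest. Its log2 fold change in PNs against control was 0.83 (SE 0.58, adjusted p = 0.31).

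Within each library, the ratio of Mt2 to Mt1 counts does not depend on scaling. This ratio was examined after the values of both genes were seen, so its tests are a description and no independent support. It was 0.433, 0.376 and 0.412 in DRG3, DRG4 and DRG5. It was 1.64, 2.10, 2.01, 1.11 and 0.672 in the slow-growing PNs 1079, 1198A, 1202, 1203 and 1206. In the fast-growing PNs it ran from 0.676 to 1.78. All 11 PNs were above all 3 controls, and the mean ratio was 1.395 ± 0.510 in PNs (SD, n = 11) and 0.407 ± 0.0292 in controls (SD, n = 3). Exact two-sided permutation tests of its log2, adjusted over 4 comparisons, gave p = 0.0027 (adjusted 0.011) for PNs, 0.036 (adjusted 0.048) for slow-growing and 0.012 (adjusted 0.024) for fast-growing PNs against control, and 0.64 (adjusted 0.64) for fast-growing against slow-growing PNs. The muscle and fat sums of the controls stood apart in the same way, and their part in the ratio was not tested. Mt2 shares 432 of its 588 exonic bases with an antisense gene, Gm45774, that has no row of its own in the count table. The strand setting of the counting is not given, and the part of such reads in the ratio was not tested. Both promoters hold metal response cores, printed above, and Mtf1, the zinc sensor that binds this element, averaged 41.2 ± 2.64 CPM over the controls and 43.2 ± 4.202 CPM over the PNs (log2 fold change 0.07, SE 0.11, adjusted p = 0.69). Of 7 metal handling genes tested, 1 rose in PNs, the zinc importer Slc39a10 (log2 fold change 0.86, SE 0.15, adjusted p = 0.0011), and 0 fell, where 26.3% of all genes were called.

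**Figure D3:**
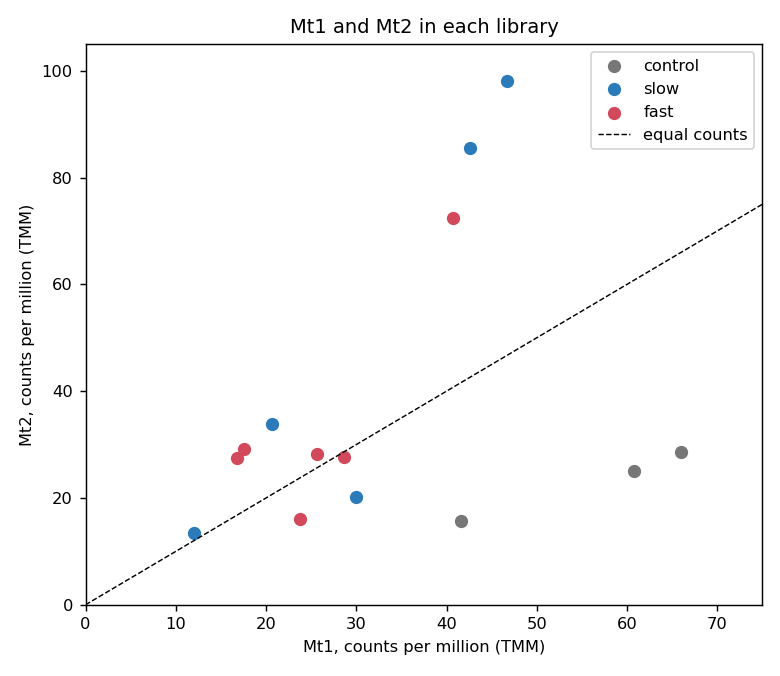
Mt2 against Mt1 level in CPM (TMM-scaled) in 3 control, 5 slow-growing and 6 fast-growing libraries, 1 point per library, with the line of equal counts dashed. The 3 controls lie far below the line, and every PN has a higher ratio of Mt2 to Mt1 than every control.

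Among the 11 PNs, several response genes were high in the same tumors. Slow 1198A and fast 1216, which belong to different growth groups, were the 2 highest PNs for Fkbp5, Tsc22d3, Zbtb16 and Klf9, 4 of the 10 genes, and these 2 PNs were singled out for that. For Nr3c1 these libraries ranked 2 and 6 of 11. At the other end, slow 1203 was the lowest PN for Nr3c1, Sgk1, Zbtb16, Klf9, Errfi1, Cebpd, Mt1 and Mt2. Over 11 PNs the log2(CPM + 1) of Fkbp5 correlated with that of Tsc22d3 (Pearson's r = 0.88, permutation p = 0.00054, adjusted p = 0.0049; Spearman's rho = 0.85, permutation p = 0.0018, adjusted p = 0.010) and Zbtb16 (r = 0.85, permutation p = 0.0016, adjusted p = 0.0091; rho = 0.91, permutation p = 0.00035, adjusted p = 0.0075). Nr3c1 and Fkbp5 gave r = 0.07 (permutation p = 0.83, adjusted p = 0.83; rho = -0.05, permutation p = 0.90, adjusted p = 0.90). All 45 pairs among the 10 genes were positive by Pearson's r, and 21 passed at an adjusted p under 0.05 (14 by Spearman's rho). The share of pairs that pass among other genes was not computed, so these counts are not set against all genes. With Fkbp5, 8101 of 16282 other genes tested gave a positive r. With Nr3c1, Cebpd had the highest r of the members (0.78) and ranked 917 among all genes. With the slow and fast means removed 32 of 45 passed. That permutation ran across all 11 PNs, without allowance for the removed means or for unequal spread of the groups. Its count is therefore not read as stronger than the 21. Within the 6 fast-growing PNs alone, where r is given without a test, all 45 pairs ran from r = -0.24 (Nr3c1 with Fkbp5) to 0.97 (Fkbp5 with Zbtb16). Their median was 0.57, and 38 of the 45 were positive. The 32 pairs above had a median of 0.72 there, from r = 0.07 (Nr3c1 with Sgk1) upward. They were picked over PNs that include these same 6, so their r there is no independent support. The 5 slow-growing PNs are too few for a value of their own.

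The number of pairs that passed changed with the tumors included. Slow 1198A and fast 1216 were singled out as the highest PNs for several members, so r tends to fall without them by that choice. Leaving them out also leaves fewer PNs to test, so the count without both does not measure how far the relations rest on them. Without slow 1198A and fast 1216, 3 of 45 pairs passed over the remaining 9 PNs, and without slow 1198A alone 6 did. The 3 pairs were Sgk1 with Errfi1 (r = 0.90, adjusted exact permutation p = 0.025), Sgk1 with Zbtb16 (r = 0.86, adjusted exact permutation p = 0.049) and Zbtb16 with Mt2 (r = 0.84, adjusted exact permutation p = 0.049). Over all 11 PNs these gave r = 0.91 (permutation p = 0.00011, adjusted p = 0.0025; rho = 0.88, permutation p = 0.00081, adjusted p = 0.0075), r = 0.90 (permutation p = 0.00022, adjusted p = 0.0033; rho = 0.85, permutation p = 0.0015, adjusted p = 0.0095) and r = 0.92 (permutation p = 6e-05, adjusted p = 0.0025; rho = 0.97, permutation p = 1e-05, adjusted p = 0.00045), and 1e-05 is the smallest p that the resamples can give. Fkbp5 with Tsc22d3 fell to r = 0.71 (adjusted exact permutation p = 0.23) and with Zbtb16 to r = 0.57 (adjusted exact permutation p = 0.36) without both PNs. With the 2 PNs farthest from the median of the first gene left out instead, r was 0.89 for Fkbp5 with Tsc22d3, 0.87 for Fkbp5 with Zbtb16, -0.18 for Nr3c1 with Fkbp5, 0.84 for Sgk1 with Errfi1, 0.74 for Sgk1 with Zbtb16 and 0.85 for Zbtb16 with Mt2. Of the 9 pairs of Nr3c1, the one with Cebpd passed (r = 0.78, permutation p = 0.013, adjusted p = 0.037; rho = 0.47, permutation p = 0.15, adjusted p = 0.24). Without slow 1203 and fast 1071, the 2 PNs farthest from the Nr3c1 median, r of this pair was 0.28. In log2(CPM + 1), slow 1203 lay at -1.02 for Nr3c1 and -2.19 for Cebpd from the mean of 11 PNs. Fast 1071 lay at -0.31 and -0.23.

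**Figure D4:**
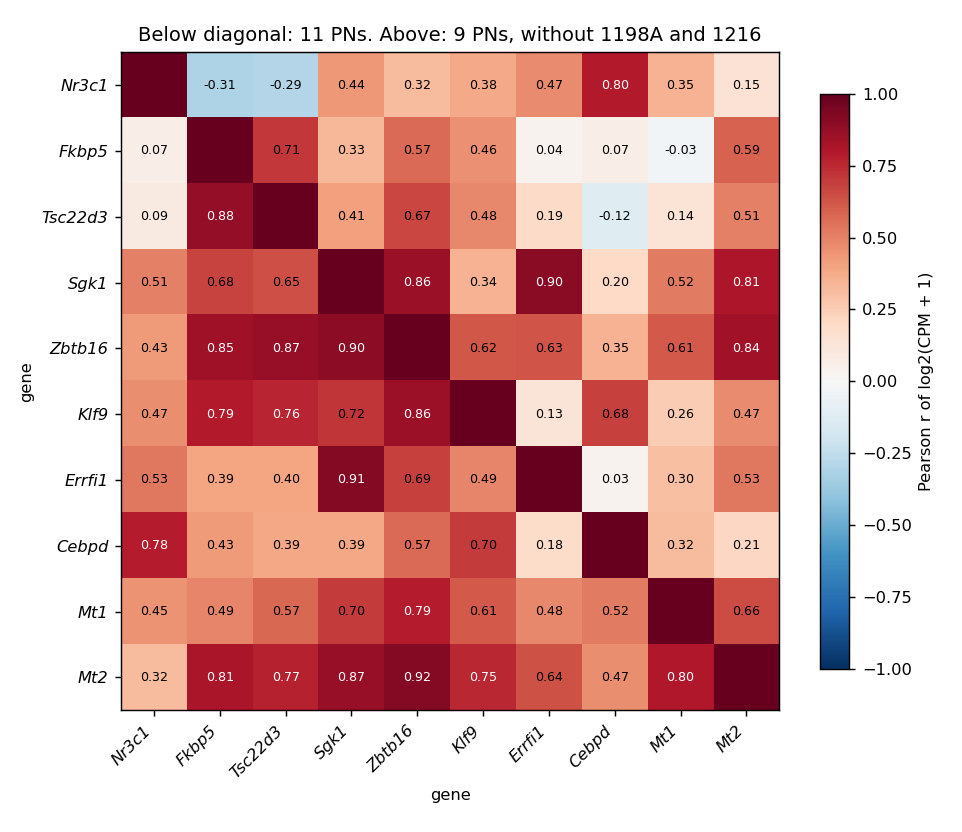
Pearson's r of log2(CPM + 1) between each pair of the 10 genes, over 11 PNs below the diagonal and over 9 PNs, without slow 1198A and fast 1216, above it. Below the diagonal r runs from 0.07 to 0.92, and above it from -0.31 to 0.90.

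The 5 genes tested whose pattern over the 11 PNs was most like that of Fkbp5 were 4931428L18Rik (r = 0.90, at only 0.878 to 1.65 CPM), the steroid sulfate transporter Slc10a6 (r = 0.88), Tsc22d3 (r = 0.88), Gtf2e2 (r = 0.86) and Kansl1 (r = 0.85), given as a description without a test. Zbtb16 ranked 7, Mt2 20 and Klf9 28 of 16282 genes, and Nr3c1 ranked 6321. The genes most like Nr3c1 were Notch2 (r = 0.97), Kmt2e (r = 0.97), Rttn (r = 0.96), Rreb1 (r = 0.96) and Nfatc1 (r = 0.96), each with its lowest PN level in slow 1203, as for Nr3c1. Points in these relations share a library, and with it depth and tissue content.

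Other genes that glucocorticoids induce were compared with the members from a list of 29, of which 28 were tested. In PNs against control 1 rose and 5 fell, where 26.3% of all genes were called, and in fast-growing PNs against control 3 rose and 10 fell, where 31.4% were. Fam107a, an actin-associated stress gene, rose in PNs (log2 fold change 1.83, SE 0.41, adjusted p = 0.0053). The metabolic switch Pdk4 fell by 2.49 on the log2 scale (SE 0.59, adjusted p = 0.0069) and the muscle ubiquitin ligase Trim63 by 3.46 (SE 0.85, adjusted p = 0.0089). The phosphatase Dusp1 fell by 2.24 (SE 0.24, adjusted p = 1.85e-05) and the thioredoxin inhibitor Txnip by 1.17 (SE 0.29, adjusted p = 0.0093). The fifth gene that fell was Fbxo32, another muscle ubiquitin ligase. The median log2 fold change of the list was -0.63, beside 0.10 for all genes tested, and muscle and fat express several of its members. Of 10 tested inflammatory genes that glucocorticoids repress, 1 fell in PNs, the collagenase Mmp13 (log2 fold change -4.92, SE 0.77, adjusted p = 0.00041), and 0 rose. Mmp13 ran from 1.02 to 47.2 CPM in controls and from 0.0752 to 1.64 CPM in PNs, so the groups overlapped at low counts. In slow-growing PNs against control 4 of the 10 fell and 0 rose, where 11.3% of all genes were called. In fast-growing PNs against control 1 fell and 1 rose. In all PNs against control, 7 of 9 immediate early genes fell and 0 rose, where 13.4% of all genes were called lower. Fosb fell furthest (log2 fold change -3.63, SE 0.39, adjusted p = 1.74e-05). Of 16 tested relatives of the members, Klf13 rose (log2 fold change 0.53) and Cebpb fell (log2 fold change -3.14).

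The same 2 PNs that led for Fkbp5 led for part of this list and for clock genes. Slow 1198A and fast 1216 were the 2 highest PNs for 286 of 16283 genes tested (1.76%) and for 9 of 28 other induced genes (Per1, Ddit4, Foxo1, Hif3a, Map3k6, Zfp36, Arrdc2, Rhob and Txnip). Hif3a, an inhibitory hypoxia-inducible factor subunit, was at 36.8 and 43.0 CPM in slow 1198A and fast 1216 and at 2.85 to 23.2 CPM in the other 9 PNs. Ddit4, an inhibitor of mTORC1, was at 14.7 and 29.4 CPM in these PNs and at 4.34 to 10.9 CPM in the others. Of 15 circadian clock genes, 7 had the same 2 highest PNs (Per1, Per2, Per3, Dbp, Nr1d2, Tef and Bhlhe40). Per1, a clock gene that the receptor also induces, was at 111 and 82.6 CPM in slow 1198A and fast 1216, at 18.6 to 57.0 CPM in the other PNs and at 21.8 to 36.7 CPM in controls. Dbp, a clock output factor, was at 14.1 and 6.31 CPM and at 1.83 to 5.30 CPM in the other PNs. Other genes of these lists ran differently. Slow 1198A and fast 1216 ranked 7 and 10 of the 11 PNs for Angptl4, 11 and 9 for Npas2 and 10 and 6 for Arntl. Among the receptor machinery, repressed inflammatory and metal handling genes, 0 of 17, 0 of 10 and 0 of 7 had these 2 PNs highest. Among relatives of the members it was 2 of 16 (Klf13 and Klf15) and among immediate early genes 1 of 9 (Nr4a1). Against control, 6 of 15 clock genes rose in PNs and 2 fell, where 26.3% of all genes were called. Nr1d1 moved furthest upward (log2 fold change 2.10, SE 0.38, adjusted p = 0.0011) and Npas2 furthest downward (log2 fold change -1.75, SE 0.29, adjusted p = 0.0006). The hour of collection is not given in the sources used here, and its part in the shared pattern was not tested.

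**Figure D5:**
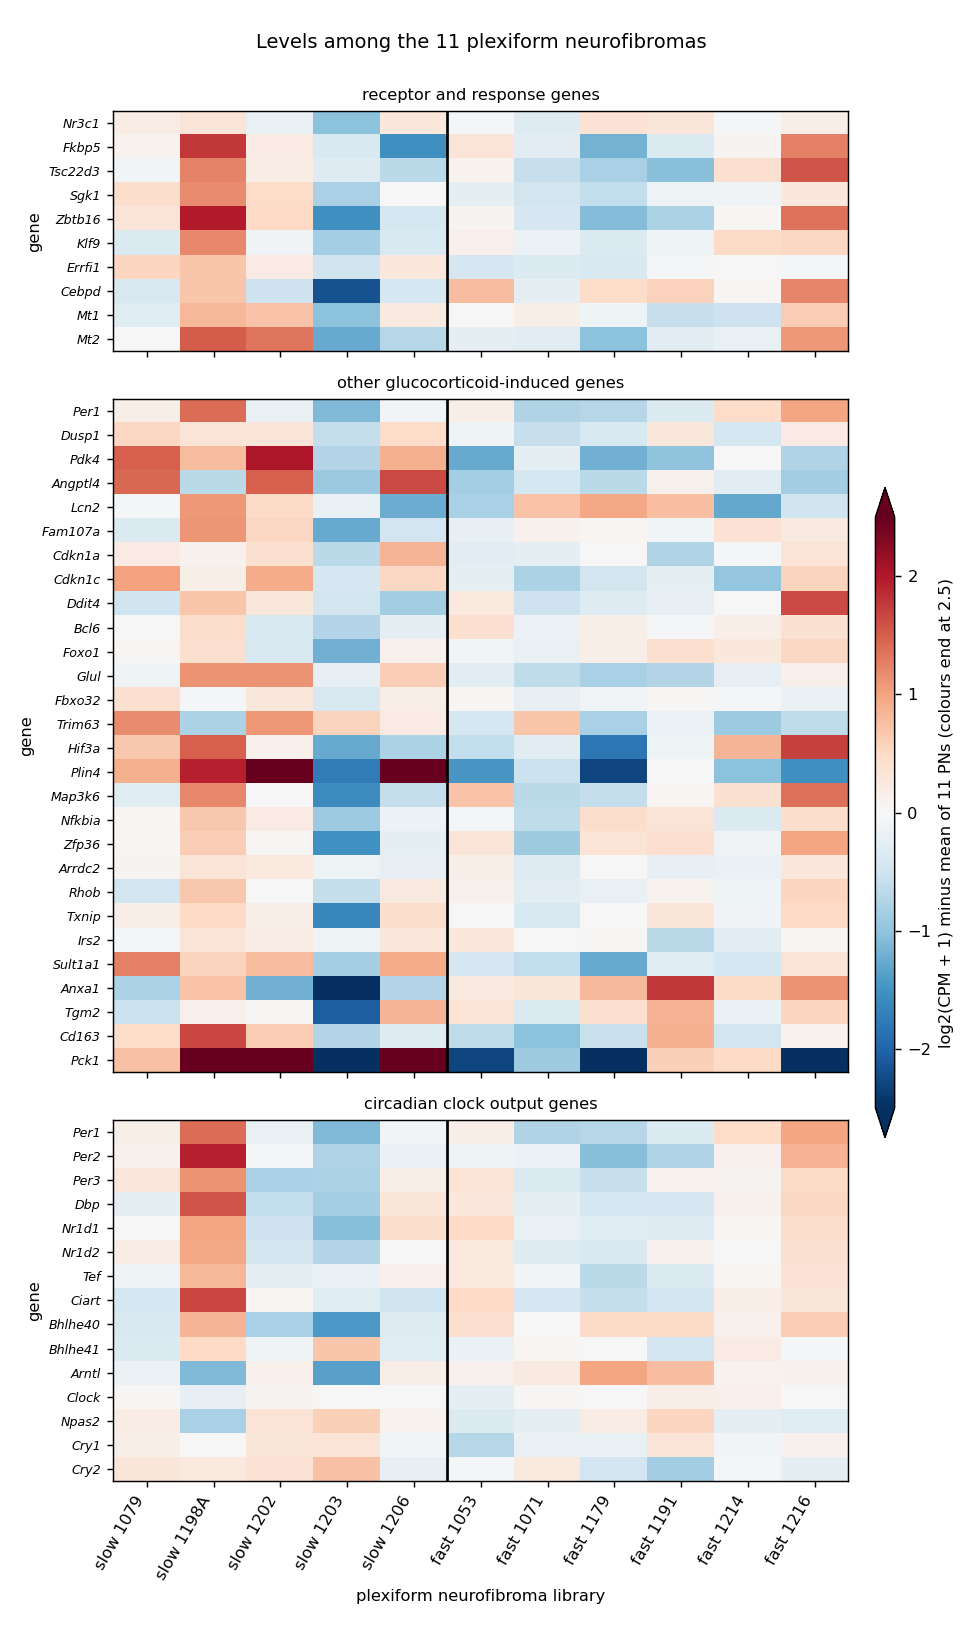
Level of each gene in the 11 PNs as log2(CPM + 1) minus its mean over them, for the 10 receptor and response genes, 28 other glucocorticoid-induced genes and 15 circadian clock genes; colors end at 2.5 in either direction and the vertical line parts slow-growing from fast-growing PNs. Slow 1198A and fast 1216 are the highest PNs for 4 of 10, 9 of 28 and 7 of 15 genes.

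Tissue marker sums of these PNs were partly shared. The muscle sum was 17.5 CPM in slow 1198A and 76.2 CPM in fast 1216, the lowest of their groups. The fat sum was 1618 CPM in slow 1198A and 38.1 CPM in fast 1216, which was the lowest of the fast-growing PNs. Fibroblast markers were at the top of their group in both libraries (5565 CPM in slow 1198A, 10340 CPM in fast 1216). Slow 1198A was also highest of its group for macrophage (312 CPM) and satellite glia markers (963.5 CPM) and lowest for neuron markers (1768 CPM). Fast 1216 was at neither end of its group for these (504.5, 710 and 1477 CPM), and was lowest for Schwann cell markers (6398 CPM). Glul is counted both as a satellite glia marker and among the other induced genes. Of the satellite glia sums, Glul made up 482 CPM in slow 1198A and 240 CPM in fast 1216. The part of all these sums in the shared pattern was not tested. Total counts were 13439253 and 14785943, inside the range of the other PNs.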

How the data were processed

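In all, 14 bulk RNA-seq libraries from mouse DRGs with nerves and PNs were analysed. Per the study's methods, the authors extracted RNA from frozen tissue, amplified it with the Ovation RNA-Seq System, called bases with CASAVA 1.4, checked reads with FastQC 0.11.0, aligned reads to mm10 with TopHat2 2.0.9 and counted them per gene with featureCounts 1.5.2; the submitters' processing notes also name edgeR 3.16.5. The counts as deposited are whole reads per gene. The deposited log2 values hold 16382 genes and are the authors' rescaling of the same counts; they served as an alternative. The 10 columns headed by mouse number hold the same units. Annotation and strand setting are not given in the sources used here.

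Counts were tested with edgeR 4.0.16 (R 4.3.3): TMM factors, filterByExpr, quasi-likelihood F-test on the libraries of each comparison, Benjamini-Hochberg adjustment over all genes tested, checked on simulated data. Alternatives were DESeq2 1.42.0, limma 3.58.1 voom, other scalings and filters, covariates and leaving out libraries; removing length and GC trends and leaving out slow 1198A with fast 1216 were chosen after seeing the data. Levels were compared by exact permutation of log2(CPM + 1), and correlations by 100000 permutations, exact over 9 PNs. Level sums over 12 muscle or fat genes used TMM-scaled CPM. Gene positions came from a GRCm38 annotation. The members and lists were chosen with earlier results of these data known. Named genes were all members, per other list up to 4 genes called per direction in PNs against control by size of change, Nr3c2, Hsd11b1, Mtf1 and Nf1, and the 5 genes most like Fkbp5 and Nr3c1; genes named for the 2 highest PNs were chosen after their values were seen.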

Additional observations from a re-analysis of the deposited data

How the results depend on the processing

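Of the values reported for single genes, 156 were recomputed under settings other than leaving out a library: 129 kept their direction and their side of the threshold, 9 were no longer called, 3 became called and 15 changed sign; in each case the cause was not tested. The 2 members called in PNs against control became 1 with total counts without TMM, without the filter on low counts and with limma voom. They also became 1 with length and GC trends removed, and 0 with muscle and fat scores as covariates. The 3 called in fast-growing PNs against control became 4 with total counts without TMM and with DESeq2, which added Klf9 as higher. They became 0 with those covariates, in a fit that called 0 of all genes and gave Sgk1 -1.28, Errfi1 -0.74 and Mt1 -3.52. Signs changed around 0 for Nr3c1 in PNs against control, at -0.039 (relative log expression size factors), -0.039 (DESeq2), -0.029 (limma voom), -0.15 (covariates), -0.30 (length and GC), -0.034 (without both slow 1198A and fast 1216) and -0.10 (deposited log2 values). For Nr3c1 in slow-growing PNs against control the value was 0.0029 with total counts and 0.46 with covariates, and in fast-growing PNs -0.0093 with limma voom, -0.56 with covariates and -0.27 with length and GC trends removed. With covariates, Tsc22d3 and Sgk1 in PNs against control gave -0.062 and 0.14, and Zbtb16 gave -0.17 without both slow 1198A and fast 1216. Total counts moved the median of all genes in fast-growing PNs against control by 0.10, length and GC removal that of PNs against control by -0.13 and the deposited log2 values by -0.12.

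As each library was left out, called members numbered 0 to 3 in PNs against control, 0 to 0 in slow-growing and 3 to 4 in fast-growing PNs against control, and 0 to 1 in fast-growing against slow-growing PNs. Nr3c1 then ran from -0.048 to 0.088 in all PNs, from -0.17 to 0.12 in slow-growing and from -0.078 to 0.13 in fast-growing PNs against control. Correlated pairs, 21 over 11 PNs, numbered 6 to 20 with 1 PN left out (6 without slow 1198A, 13 without slow 1203), 32 with group means removed and 3 without both slow 1198A and fast 1216. Promoter windows with the palindrome were 2 with at most 2 mismatches, 1 with at most 1 and 1 with 0. The count over all genes moved past 1.5 times the main value with the covariates (220 in PNs, 0 in the other comparisons). It did so in slow-growing PNs against control with DESeq2 (3529 against 1769) and with all 3 groups in 1 fit (3280). Left-out libraries also moved it that far. PNs against control gave 2476 without DRG4 and 2061 without DRG5, against 4283. Slow-growing PNs against control gave 685 without DRG4, 599 without DRG5, 957 without slow 1079 and 1052 without slow 1202. Fast-growing PNs against control gave 3342 without DRG5, against 5043. Fast-growing against slow-growing PNs gave 130 with relative log expression, 1570 with DESeq2, 34 with limma voom and 423 with all 3 groups in 1 fit, against 196. No paired analysis was possible because the groups share no replicate numbers. With 3 controls, the difference of Fkbp5 in PNs against control, 1.03 on the log2 scale (SE 0.59), was not called by edgeR (adjusted p = 0.22).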
